A study of Mus musculus with 6 samples.

Results

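The synaptojanin and intersectin genes were followed in neurospheres of Ts1Cje mice, a model of Down syndrome in which part of distal chromosome 16 is present in 3 copies. The group holds 10 genes, namely Synj1 and Itsn1 from the trisomic segment, their disomic paralogues Synj2 and Itsn2, and the binding partners Eps15, Dnm1, Dnm2, Sh3gl1, Sh3gl2 and Amph. Members were all probe sets that the platform annotation gives to one of these symbols alone. These were 43 of the 34945 probe sets with a single symbol, and 10 of the 18193 genes so named.

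RNA from 3 Ts1Cje and 3 disomic neurosphere samples, all of female mice of 84 days, was hybridised to Affymetrix arrays of the mouse genome. The disomic samples are labelled C57BL/6 and the Ts1Cje samples carry the segment on a C57BL/6 background, bred from Ts1Cje males and C57BL/6 females. Neurospheres are floating clusters of neural stem and progenitor cells, grown here for 7 days from the walls of the lateral ventricles, where the subventricular zone lies. The extra segment arose during the targeting of Sod1 and sits on the end of chromosome 12. The Ts1Cje mice therefore also carry that rearrangement, and a single line stands for the trisomy. The labels call the samples of a genotype biological replicates. The disomic mice were littermates of the Ts1Cje mice, paired with them in the published design, but the labels do not say that a replicate number marks a litter.

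Clathrin-mediated endocytosis takes up membrane and receptors in small coated vesicles. Intersectins and Eps15 are scaffolds that gather the coat proteins, endophilins and amphiphysin bend the membrane, dynamins cut the vesicle neck and synaptojanins remove phosphates from membrane phosphoinositides so that the coat can come off. In neurons this machinery recycles synaptic vesicles, and in dividing cells it takes up growth factor receptors. Human SYNJ1 and ITSN1 lie on chromosome 21, and their overexpression is studied in Down syndrome for this reason.

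In the trisomic neurospheres Synj1 and Itsn1 had higher expression on their brightest probe sets. On every expressed probe set of their disomic partners the groups overlapped. A larger change of Itsn1 than of its paralogue Itsn2 was not shown (two-sided exact permutation p = 0.6). On its brightest probe set Synj1 was 1.63-fold higher in Ts1Cje (95% confidence interval 1.41 to 1.87), and Itsn1 was 1.33-fold higher (1.06 to 1.67). Of the 7 expressed probe sets of this pair, 6 had every Ts1Cje array above every disomic array, which held for 5.53% of all expressed probe sets. Within the trisomic segment it held for 48 of the 80 expressed probe sets, so it is not particular to this pair. A moderated t above 4 in limma was reached by 1 probe set of each gene, against 0.38% of all probe sets. It was reached by 158 of all 16371 expressed probe sets and by 20 of the 80 in the trisomic segment. No adjusted p of a member was below 0.05. Synj2 and Dnm1 were not expressed at the level used here.

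The values are log2 intensities. M is the Ts1Cje mean less the disomic mean, and A the average of all 6 arrays. Probe sets with A above 5 were counted as expressed. Probe sets differ in brightness with their sequence, so levels are compared between arrays and not between probe sets. In such bulk samples more cells of a type cannot be told apart from more RNA per cell. Of the 43 probe sets, 14 were expressed, for 8 genes. With 3 arrays per genotype the precision of single comparisons is limited, and the lowest two-sided p of an exact permutation test is 0.1.

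Synj1 and Itsn1 lie close together on chromosome 16, at chr16:90936092-91013727 and chr16:91729310-91920591 in GRCm38.p6. Because this pair is the part of the group carried in 3 copies, the 250 bases before a transcript start are shown for each, from RefSeq in GRCm38.p6. Capitals mark each GC box, searched as GGGCGG on both strands. The Synj1 window is chr16:91011096-91011345 on the minus strand and the Itsn1 window chr16:91729121-91729370 on the plus strand. The Synj1 start is an internal one, and its window reaches 2632 bases into the annotated gene.
Synj1: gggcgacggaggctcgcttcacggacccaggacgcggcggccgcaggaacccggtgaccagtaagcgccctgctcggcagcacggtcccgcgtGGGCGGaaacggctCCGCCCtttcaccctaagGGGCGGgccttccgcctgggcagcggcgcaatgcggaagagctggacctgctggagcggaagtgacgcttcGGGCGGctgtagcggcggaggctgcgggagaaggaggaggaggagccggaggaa
Itsn1: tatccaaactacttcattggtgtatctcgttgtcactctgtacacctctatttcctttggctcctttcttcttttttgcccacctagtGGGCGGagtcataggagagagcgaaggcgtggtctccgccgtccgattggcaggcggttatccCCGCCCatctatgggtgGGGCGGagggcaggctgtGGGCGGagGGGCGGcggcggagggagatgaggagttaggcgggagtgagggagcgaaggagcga
A GC box was present in 32.7% of all 32851 windows of this length. The Synj1 window held 4 and the Itsn1 window 5. A second listed start of Synj1 held 0 in its window, and the windows of the other members held 3 for Itsn2, 2 for Sh3gl2, 1 for Dnm2 and 0 for Amph, Dnm1 and Sh3gl1. The listed starts of Synj2 and Eps15 lie far inside these genes and were left out. The Synj1 and Itsn1 windows shown had 30 and 17 CG dinucleotides. These are matches of letters, and no measurement here bears on binding at them.

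Synj1 encodes synaptojanin 1, the phosphoinositide phosphatase of endocytosis. Its brightest probe set, 1454961_at, read 9.29, 9.32 and 9.51 on the disomic arrays and 10.15, 10.01 and 10.06 on the Ts1Cje arrays. All Ts1Cje values were above all disomic values, and the gap between the groups was wider than the range within either. M was 0.70 with a standard error of 0.076 and a moderated t of 9.21 in limma. A moderated t of 4 was the threshold, the one used in the published analysis.

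The other expressed Synj1 probe sets were also higher in Ts1Cje, with more spread among the disomic arrays. Probe set 1436333_a_at read 7.18, 7.81 and 8.11 in disomic and 8.41, 8.45 and 8.71 in Ts1Cje neurospheres. Probe set 1436334_at read 6.61, 7.04 and 7.67 in disomic and 7.79, 8.19 and 8.14 in Ts1Cje neurospheres. In both cases disomic 1 was the lowest array and disomic 3 came closest to the Ts1Cje arrays. Their M values were 0.83 (standard error 0.28, moderated t 2.98) and 0.93 (standard error 0.32, moderated t 2.92), which did not reach 4. Without disomic 3 their moderated t was 4.14 and 5.65, and with any other array left out it was 2.19 to 3.60 and 2.15 to 2.79. Across the 6 arrays these probe sets followed each other, with Pearson correlations of 0.87 to 0.97, a description of 6 points that include the difference between the genotypes. The fourth Synj1 probe set, 1439997_at, stood at the lowest value of the data, 2.23, on every array.

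Itsn1 encodes intersectin 1, a scaffold with Eps15 homology and SH3 domains that binds dynamin and synaptojanin. The brightest of its 9 probe sets, 1435885_s_at, read 10.84, 11.22 and 11.04 on disomic and 11.35, 11.57 and 11.42 on Ts1Cje arrays. The groups did not overlap, but disomic 2 lay only a little below Ts1Cje 1. M was 0.41 with a standard error of 0.12 and a moderated t of 3.38, which did not reach 4. Without disomic 2 the moderated t was 4.70 with an M of 0.51, and with any other array left out the moderated t was 2.57 to 3.21.

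Itsn1 probe set 1425899_a_at, dimmer than the first, gave a clearer separation. Its disomic values were 6.40, 6.61 and 6.58 and its Ts1Cje values 7.19, 7.30 and 6.86. Ts1Cje 3 was thus the lowest of its group and still above the disomic arrays. M was 0.59 with a standard error of 0.14, a fold change of 1.503 (95% confidence interval 1.15 to 1.96). The moderated t of 4.13 was just past 4, and it was between 3.13 and 3.58 without disomic 1, disomic 2, disomic 3, Ts1Cje 1 or Ts1Cje 2. Without Ts1Cje 3 it was 8.14.

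Another 2 probe sets of Itsn1 were expressed and gave less even values. Probe set 1452338_s_at read 7.82, 8.85 and 8.64 in disomic and 9.004, 9.20 and 9.03 in Ts1Cje neurospheres. The groups did not overlap, disomic 1 was far below the other 5 arrays, and M was 0.64 with a standard error of 0.31. Without disomic 1, M was 0.33. Probe set 1435884_at read 9.53, 10.48 and 9.36 in disomic and 10.58, 9.69 and 9.44 in Ts1Cje neurospheres. Here disomic 2 and Ts1Cje 1 were high and the other 4 arrays low, in both genotypes. Its M of 0.11 had a standard error of 0.47, and its correlation with the other expressed Itsn1 probe sets was 0.22 to 0.30, against 0.80 to 0.94 among those. The remaining 5 Itsn1 probe sets had A between 2.27 and 4.38.

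**Figure D1:**
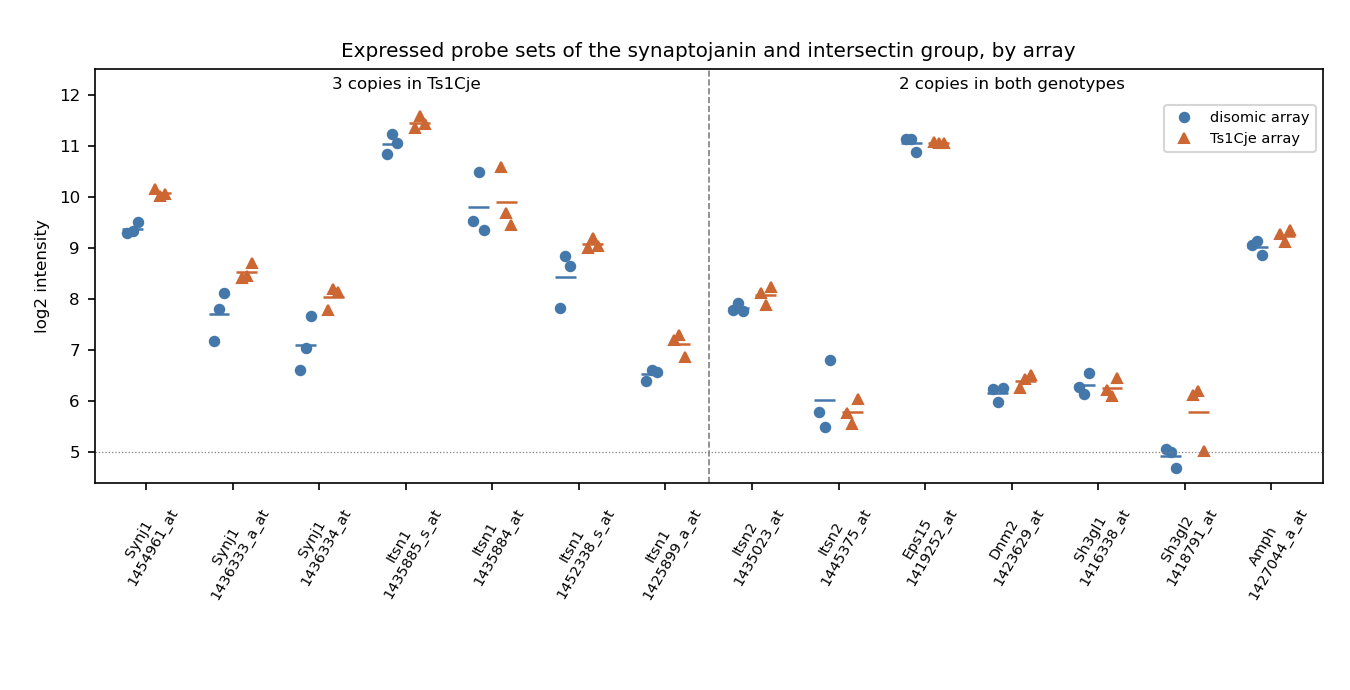
Log2 intensity of the 14 expressed probe sets on each of the 6 arrays. Circles are disomic arrays, triangles Ts1Cje arrays, short lines the mean of each genotype, and the dotted line marks the level of 5. On all 3 Synj1 probe sets and 3 of the 4 Itsn1 probe sets the triangles lie above the circles, and on none of the 7 probe sets to the right of the dashed line do the groups separate.

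Synj2 encodes synaptojanin 2, the second phosphatase of the family. None of its 6 probe sets was expressed, 5 had the same value on all 6 arrays, and the highest value was 2.88. No change of Synj2 could be measured at this level, and its copy number is the same in both genotypes. A comparison of Synj1 with Synj2 within an array would only repeat the values of Synj1, and no measured contrast between these paralogues is given.

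Itsn2, the paralogue of Itsn1, was expressed. Its brightest probe set, 1435023_at, read 7.78, 7.92 and 7.76 on the disomic arrays and 8.11, 7.88 and 8.23 on the Ts1Cje arrays. Ts1Cje 2 lay within the disomic range, and M was 0.25 with a standard error of 0.11 and a moderated t of 2.31. Without Ts1Cje 2, M was 0.35 and the moderated t 4.64, and with any other array left out the moderated t was 1.66 to 2.42. The second expressed probe set, 1445375_at, read 5.79, 5.49 and 6.80 in disomic and 5.78, 5.56 and 6.05 in Ts1Cje neurospheres, with disomic 3 apart from the rest and an M of -0.23.

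To compare the changes of the intersectins, the brightest Itsn2 probe set was subtracted from that of Itsn1 on each array, a difference that means nothing as a level and is read only between genotypes. It was 3.21 ± 0.13 in disomic and 3.38 ± 0.28 in Ts1Cje neurospheres (SD, n = 3 each). The excess of 0.16 in Ts1Cje was within the spread of the arrays (two-sided exact permutation p = 0.6), and it was 0.0031 without Ts1Cje 2, 0.086 without disomic 1 and 0.25 without Ts1Cje 3. With the mean of all expressed probe sets of each gene the excess was 0.43 (exact permutation p = 0.2). With so few arrays, such p-values do not show that the paralogues behaved alike.

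Eps15 is a scaffold that binds intersectins and the clathrin adaptor. Its only expressed probe set, 1419252_at, read 11.13, 11.13 and 10.87 in disomic and 11.07, 11.04 and 11.05 in Ts1Cje neurospheres. The Ts1Cje values lay between the disomic values. M was 0.0068 with a 95% confidence interval of -0.21 to 0.23, an interval that does not hold 0.58, the log2 of 1.5.

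Dnm2 encodes the dynamin present in most cell types, and Dnm1 the dynamin of neurons. Dnm2 probe set 1423629_at read 6.24, 5.98 and 6.25 in disomic and 6.25, 6.43 and 6.51 in Ts1Cje neurospheres. Ts1Cje 1 met the highest disomic arrays, and M was 0.24 with a standard error of 0.11. The other 6 Dnm2 probe sets were not expressed. Both Dnm1 probe sets were dim, with no value above 3.95.

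Sh3gl1 and Sh3gl2 encode endophilins, which bind synaptojanin and dynamin through an SH3 domain. Sh3gl1 probe set 1416338_at read 6.29, 6.13 and 6.55 in disomic and 6.21, 6.10 and 6.45 in Ts1Cje neurospheres, values that cover the same range. Its M was -0.070 with a standard error of 0.15.

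Sh3gl2, the endophilin of neurons, gave the second highest M of the expressed probe sets, on values near the level of 5. Its probe set 1418791_at read 5.07, 5.01 and 4.70 in disomic and 6.12, 6.20 and 5.03 in Ts1Cje neurospheres. Ts1Cje 1 and 2 were above the disomic arrays and Ts1Cje 3 was among them. M was 0.85 with a standard error of 0.38, and the 95% confidence interval of the fold change ran from 0.89 to 3.68. Without Ts1Cje 3 the moderated t went from 2.24 to 8.55, with an M of 1.23. With any other array left out it was 1.56 to 1.94. The other Sh3gl2 probe sets were not expressed. Probe set 1449228_at had an A of 2.44 and an M of 0.078, and 1418792_at stood at 2.23 on every array.

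Amph encodes amphiphysin, which bends membrane and brings dynamin and synaptojanin to the vesicle neck. Its probe set 1427044_a_at read 9.06, 9.13 and 8.87 in disomic and 9.27, 9.11 and 9.34 in Ts1Cje neurospheres. Ts1Cje 2 lay within the disomic range and M was 0.22 with a standard error of 0.10.

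**Figure D2:**
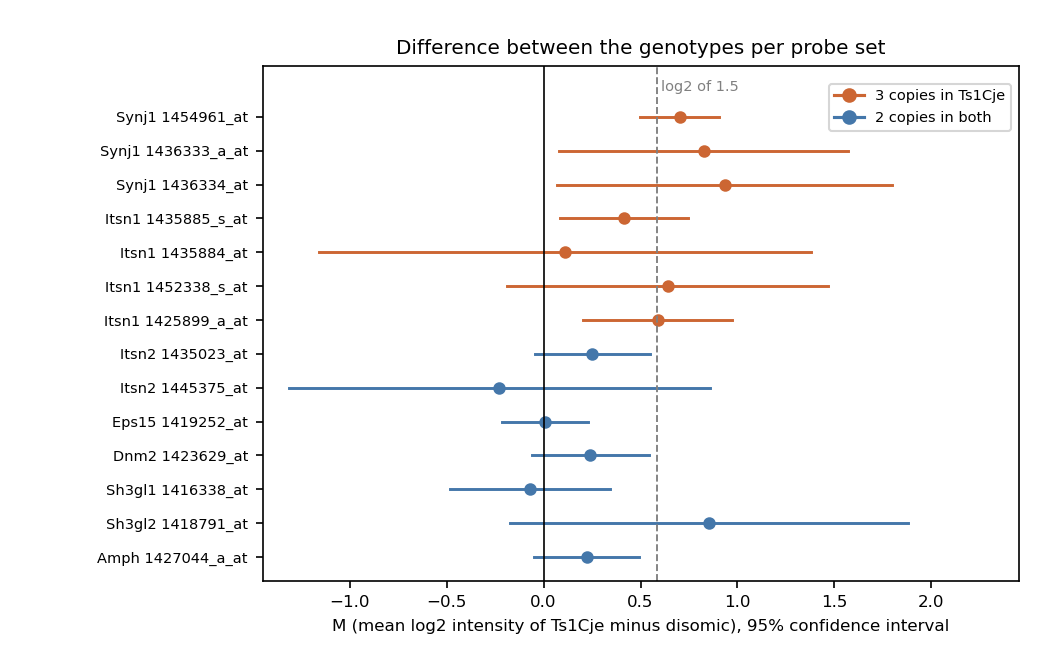
M of each expressed probe set with its 95% confidence interval from limma, on a log2 scale. The dashed line is the log2 of 1.5, the value of a gene whose RNA follows 3 copies over 2. The intervals of the 7 probe sets of Synj1 and Itsn1 hold that line, and those of 2 of the 7 probe sets of disomic members do. Of all 16371 expressed probe sets, 6317 have an interval that holds it. The intervals of Itsn1 1435884_at and 1452338_s_at, and of all disomic members, hold 0 as well.

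Over the 14 expressed probe sets, 12 had an M above 0, with a median of 0.33. Those of disomic members numbered 7, of which 5 were above 0, with a median of 0.22. Over all 16371 expressed probe sets the median was 0.0071, with 8443 above 0. A moderated t above 4 was found for 2 of the 43 member probe sets, Synj1 1454961_at and Itsn1 1425899_a_at, where it was found for 0.38% of all 45037 probe sets. No member had a moderated t below -4, against 0.324% of all. Groups that did not overlap, with Ts1Cje higher, were found for 6 of the 14, against 5.53% of all expressed probe sets, and with Ts1Cje lower for 0, against 5.21%.

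After Benjamini-Hochberg adjustment over all probe sets, 0 member probe sets had an adjusted p below 0.05 in limma, a level that 0.00222% of all reached, and the adjusted p of Synj1 1454961_at was 1. Without adjustment, the 95% confidence interval of M was above 0 for 5 member probe sets, against 1.33% of all, and below 0 for 1, against 1.17%. The 5 were all of Synj1 and Itsn1.

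Among the 29 member probe sets with A of 5 or less, 10 were constant. Of the 19 that varied, 14 had an M above 0, with a median of 0.18 that is a difference between dim values. Groups without overlap were found for 1 with Ts1Cje higher, where 0.583% of all dim probe sets showed this, and for 1 with Ts1Cje lower, against 0.604%. The first was Dnm2 probe set 1432004_a_at, with 2.44, 2.68 and 2.86 in disomic and 3.89, 2.90 and 3.69 in Ts1Cje neurospheres, where Ts1Cje 2 was close to the disomic arrays. The second was Itsn2 probe set 1446735_at, with 3.90, 4.32 and 4.63 in disomic and 3.30, 3.63 and 3.84 in Ts1Cje neurospheres, the opposite direction to the brightest Itsn2 probe set. Both were singled out after their values were seen.

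Within the trisomic segment an M above 0 was found for 43 of the 44 expressed trisomic genes, each on its brightest probe set, with a median of 0.53. Of all 8947 expressed genes, 4822 had an M above 0. The groups did not overlap for 27 of the 44, all higher in Ts1Cje, against 6.12% of expressed genes. A moderated t above 4 was found for 15 of the 44, against 1.13%. Synj1 ranked 10 by M and 3 by moderated t, and Itsn1 ranked 31 by M and 18 by moderated t. The rank of Itsn1 by M rests on its brightest probe set, and 1425899_a_at and 1452338_s_at, with M of 0.59 and 0.64, lie above the median of the segment. The confidence interval of M held 0.58 for both, as it did for 39 of the 44 genes and for 3097 of all 8947 expressed genes. Differences between genes in this ranking were not tested, so the order of genes with close M is not established.

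The nearest annotated genes that were expressed all had an M above 0, from 0.15 to 0.81, and likeness to Synj1 or Itsn1 was not tested. On the sides of Synj1, Paxbp1 had an M of 0.49, Urb1 0.81, Eva1c 0.76 and Cfap298 0.23, with standard errors of 0.25, 0.33, 0.38 and 0.16. On the sides of Itsn1, Cryzl1 had an M of 0.65, Son, a splicing cofactor, 0.54, Atp5o, a subunit of the mitochondrial ATP synthase, 0.44 and Donson, a replication factor, 0.15, with standard errors of 0.11, 0.21, 0.20 and 0.22. Cryzl1, which lies 104 bases from Itsn1, was the one of these 8 with a moderated t above 4 (6.20). Of the other genes among the 5 nearest on each side, Mrap, 4932438H23Rik and Gm10785 were dim and the rest were not matched to a probe set.

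**Figure D3:**
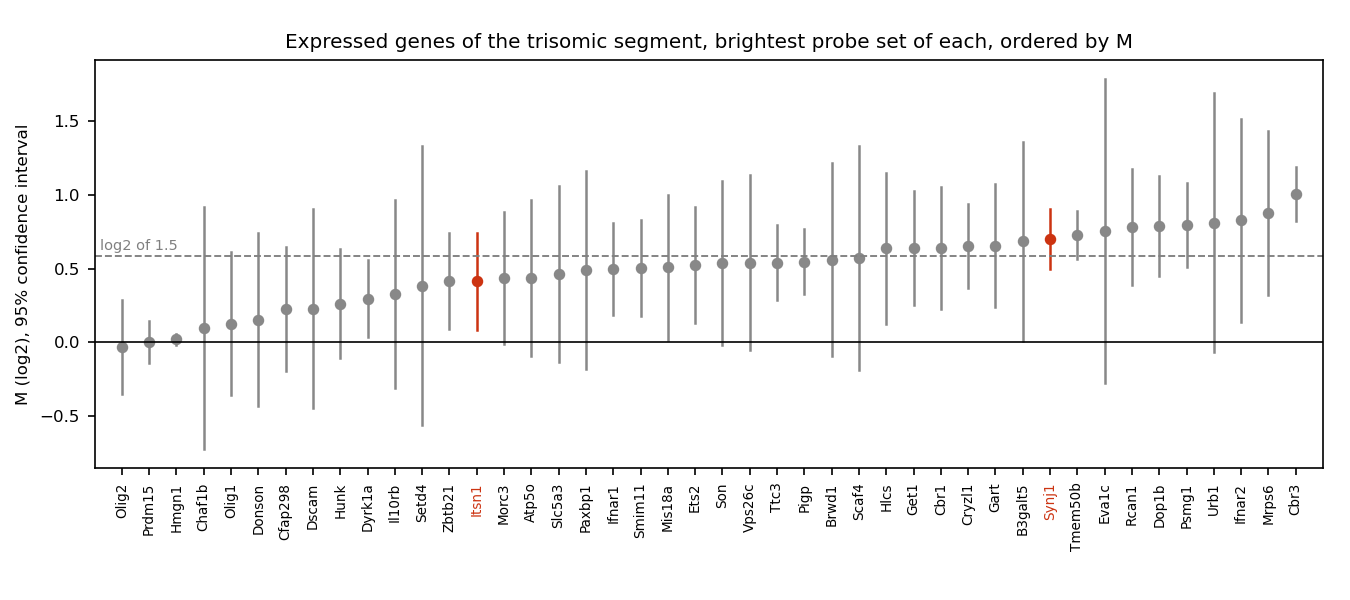
M and 95% confidence interval of the 44 expressed genes of the trisomic segment, one brightest probe set each, in order of M on a log2 scale. Synj1 and Itsn1 are in red, and both intervals hold the dashed line at the log2 of 1.5.

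Other genes of clathrin-mediated endocytosis had M values on both sides of 0, from -0.26 to 0.63. The list held 52 genes that are not members (clathrin, its adaptors, epsins, further membrane-bending proteins and their kinases), of which 49 were measured and 37 expressed. Their median M was 0.073, with 28 above 0. Over all 8947 expressed genes the median was 0.017, with 4822 above 0. A moderated t past 4 was found for 0 of them in limma, against 1.13% of all 8947 expressed genes above 4 and 0.693% below -4. The 95% confidence interval of M was above 0 for 2, against 3.73%, and below 0 for 0, against 2.87%. The groups did not overlap for 4, all higher in Ts1Cje, against 6.12% of expressed genes higher and 5.16% lower.

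The 4 with the highest moderated t were Snx18, Hgs, Ap2s1 and Dnm3. Snx18, a sorting nexin that bends membrane, read 8.90, 8.67 and 9.11 in disomic and 9.18, 9.51 and 9.36 in Ts1Cje neurospheres (M 0.46, standard error 0.16). Ap2s1, the small subunit of the clathrin adaptor, had an M of 0.18 and Hgs, a sorting protein of endosomes, 0.029. Hgs was nearly flat, with 5.94, 5.94 and 5.95 in disomic and 5.99, 5.95 and 5.97 in Ts1Cje neurospheres. The intervals above 0 were those of Snx18 and Hgs. Dnm3, the remaining dynamin, read 4.99, 5.08 and 5.13 in disomic and 5.55, 6.22 and 5.32 in Ts1Cje neurospheres, with an M of 0.63 and a standard error of 0.26. Clathrin heavy chain, Cltc, had an M of 0.036 and Ap2m1, a disomic adaptor subunit on chromosome 16, had 0.18, both with overlapping groups.

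Enzymes that add or remove phosphates on phosphoinositides, the substrates of synaptojanins, were taken as another list of 24 genes, of which 22 were measured and 19 expressed. Their median M was 0.13, with 15 above 0, against 4822 of all 8947 expressed genes. A moderated t past 4 in limma was found for 0, against 1.13% of expressed genes above 4 and 0.693% below -4. The interval of M was above 0 for 3, against 3.73% of all expressed genes, and below 0 for 0, against 2.87%. The groups did not overlap for 3 that were higher in Ts1Cje, Pip4k2b, Pip4k2c and Pi4k2b, against 6.12%, and for 1 that was lower, Pik3c3, against 5.16%.

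The kinases of this list add the phosphates that phosphatases such as synaptojanin 1 remove. Pip4k2c, a phosphatidylinositol phosphate kinase, read 7.51, 7.31 and 7.02 in disomic and 7.52, 7.87 and 7.89 in Ts1Cje neurospheres, where Ts1Cje 1 was close to disomic 1 (M 0.48, standard error 0.18). Pip4k2b had an M of 0.41 and Pi4k2b 0.21, with standard errors of 0.15 and 0.077. Pip5k1b, which makes the substrate of synaptojanin 1, had an M of 0.42 and a standard error of 0.15, with groups that overlapped. Pik3c3, the kinase of endosomal lipids, had an M of -0.38 and a standard error of 0.15.

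**Figure D4:**
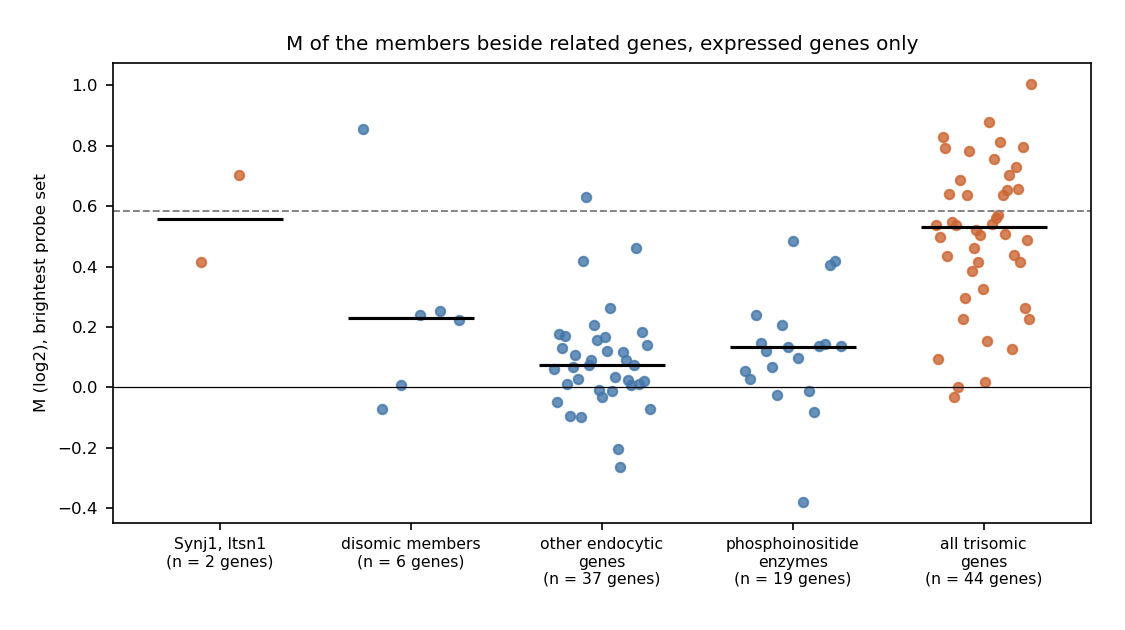
M of expressed genes, one brightest probe set each, on a log2 scale, with a line at each median and a dashed line at the log2 of 1.5. The 6 disomic members have a median of 0.23, with Sh3gl2 at 0.85 far above the others, and the lists of other endocytic genes and phosphoinositide enzymes have medians of 0.073 and 0.13.

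The genes whose profile over the 6 arrays was most like that of Synj1 were Myo6, an endocytic motor protein (Pearson correlation 0.995), Cbr3, a trisomic carbonyl reductase (0.981), and Slc4a4, a bicarbonate transporter (0.981). For Itsn1 they were Taf1c (0.984), Gpr146 (0.982) and Pde1c, a phosphodiesterase (0.978). A correlation above 0.95 was reached by 15 of 8946 genes for Synj1 and 13 for Itsn1. These correlations are over 6 arrays that share a genotype difference and are given as a description.

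Of the markers of neural stem and progenitor cells, 10 of 11 measured were expressed, all but Gfap (A 4.87). Gfap read 5.42, 5.72 and 3.61 in disomic and 2.37, 5.75 and 6.36 in Ts1Cje neurospheres, a wide spread within each genotype. Sox2 had an A of 13.22 and Nes of 9.93, with groups that overlapped for both. Neuronal markers were expressed for 3 of 12, Map2, Syt4 and Gad1, while Dcx, Tubb3, Snap25, Syp and Syn1 had A of 2.23, 2.47, 2.26, 4.26 and 4.62. The mean over the neuronal markers was 4.43 to 4.69 on the disomic arrays and 4.30 to 4.65 on the Ts1Cje arrays. Oligodendrocyte markers were expressed for 4 of 6, with means of 6.52 to 7.16 in disomic and 6.42 to 6.76 in Ts1Cje neurospheres. Markers of microglia, vascular cells and ependymal cells were expressed for 0 of 6, 0 of 5 and 0 of 4. No marker had a moderated t past 4.

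Measures of RNA quality differed between the genotypes. The log2 signal of the 3′ end of actin over its 5′ end was 1.53 to 1.83 on the disomic arrays and 1.87 to 2.26 on the Ts1Cje arrays, and that of Gapdh was 2.09 to 2.28 and 2.29 to 2.44. The 18S ribosomal control read 10.24 to 11.74 in disomic and 11.97 to 12.36 in Ts1Cje neurospheres, with disomic 1 lowest, the array that was also lowest on every expressed probe set of Synj1 and on 3 of the 4 of Itsn1. The part of these differences in the results was not tested. Without disomic 1 the brightest probe set of Synj1 had an M of 0.66 (moderated t 7.99) and that of Itsn1 an M of 0.32 (moderated t 3.11).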

How the data were processed

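RNA of 3 Ts1Cje and 3 disomic neurosphere samples was labelled in 2 cycles and hybridised to Affymetrix arrays. The authors deposited log2 intensities per probe set, made with GCRMA, which corrects background from probe sequence, normalizes between arrays and summarises probes. Its version is not given in the sources used here. Fine differences between dim probe sets are flattened by this correction, and many stand at one lowest value. All 6 arrays were used.

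A linear model of genotype alone was fitted to 45037 probe sets, without 64 control probe sets, with limma 3.58.1 in R 4.3.3. All tests were two-sided, with Benjamini-Hochberg adjustment over all probe sets. The prior degrees of freedom were 0.336, so each probe set was judged mostly by its own spread. The difference between Itsn1 and Itsn2 was tested by an exact permutation test. Symbols came from the platform annotation (34945 probe sets with 1 symbol, 932 with several, 9160 with none) and positions from RefSeq in GRCm38.p6. The fit was tested on simulated data. Tables were joined in pandas 2.3.3 (Python 3.11.15).

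Members and gene lists were chosen with earlier results of these data known. Named genes were all members, the 4 listed genes with the highest moderated t on each list (none passed 4), the 5 nearest genes on each side of Synj1 and Itsn1, the 3 genes most like each, and markers. Cltc, Ap2m1, Pik3c3, Syt4 and Gad1 were added after their values were seen. As alternatives, a replicate block was added and each array was left out in turn. Further alternatives were cyclic loess, array weights, other forms of the prior, a fit on expressed probe sets, other levels of A and the mean of a gene's expressed probe sets. Protein sequences were not used here.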

Additional observations from a re-analysis of the deposited data

How the results depend on the processing

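The M of the brightest Synj1 probe set was above 0 with a moderated t past 4 under all 12 alternatives of the fit, from 0.66 to 0.77 when an array was left out, and 0.82 as the mean of 3 probe sets. That of Itsn1 stayed above 0, from 0.32 to 0.51 when an array was left out. Its moderated t passed 4 under 2 of the 12 alternatives, without disomic 2 and with the replicate block. The lower end of its confidence interval was below 0 without disomic 3 (-0.053), Ts1Cje 2 (-0.060) or Ts1Cje 3 (-0.042). It was above 0 without disomic 1, disomic 2 or Ts1Cje 1. As the mean of its expressed probe sets, the M of Itsn1 was 0.44 (exact permutation p = 0.2). No member passed an adjusted p of 0.05 in limma under any alternative.

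Member probe sets with a moderated t above 4 numbered 1 to 5 and those below -4 numbered 0 to 1 when an array was left out (2 and 0 with all arrays). In the fit on expressed probe sets 1 was above 4, against 0.348% of those. Below -4 were Itsn2 1446735_at without disomic 1, Sh3gl2 1449228_at without disomic 2 and Eps15 1419252_at without disomic 3. The shares of all probe sets below -4 were then 0.584%, 0.624% and 0.968%. These Itsn2 and Sh3gl2 probe sets were dim, with A of 3.94 and 2.44. The count above 4 was 1 (Synj1) without disomic 1 or Ts1Cje 1, where 0.637% and 0.959% of all probe sets were above 4. Without Ts1Cje 2 it was 5, of Synj1, Itsn2, Eps15 and Dnm2 (0.733% of all), and without Ts1Cje 3 it was 4, of Synj1, Itsn1 and Sh3gl2 (0.704% of all). Among these, Eps15 1440729_at, Dnm2 1432004_a_at and 1437938_x_at and Itsn1 1436579_s_at were not expressed, with A of 2.47, 3.08, 2.93 and 2.56. The samples came from littermate pairs, but which arrays form a pair is not given by the labels, and the deviations of arrays with the same number correlated at -0.17, -0.033 and 0.13, which leaves the pairing by number unsettled. With the replicate block 5 member probe sets were above 4 (1.30% of all probe sets) and 1 below -4, Itsn2 1446735_at (1.499% of all). In that fit Itsn1 1435885_s_at had an M of 0.41 with a moderated t of 9.29. The excess of Itsn1 over Itsn2 moved to 0.43 with the mean of expressed probe sets.

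Median M ran from 0.033 to 0.087 for other endocytic genes and from 0.031 to 0.16 for phosphoinositide enzymes when an array was left out. M near 0 changed sign when an array was left out for Itsn1 1435884_at (-0.23 to 0.46), Itsn2 1445375_at (-0.50 to 0.16), Eps15 (-0.078 to 0.050) and Sh3gl1 (-0.17 to 0.043), and with array weights for Itsn1 1435884_at (-0.056) and Eps15 (-0.016). The Itsn1 probe set was below 0 without disomic 1, disomic 3 or Ts1Cje 1, Eps15 without disomic 3 (moderated t -8.95) or Ts1Cje 1, and Sh3gl1 was above 0 without disomic 3 or Ts1Cje 2, as was Itsn2 1445375_at without disomic 3. Probe sets at one value on all arrays cannot show a difference.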
